A study of Homo sapiens with 12 samples.

Results

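The genes described here are those that the table names as hosts of microRNAs or of small nucleolar RNAs (snoRNAs). They were chosen by symbol: names of the form MIR...HG gave the microRNA hosts, and names of the form SNHG with a number, together with GAS5, gave the snoRNA hosts. Of 81 rows with such names among 58735, 42 averaged 10 or more raw reads per library, 21 of 55 microRNA hosts and 21 of 26 snoRNA hosts. Of the 39 others, 21 had no read in any library. Just inside that limit were MIR137HG with a mean count of 11.5 and MIR200CHG with 12.17, and just outside were SNHG22 with 7.833 and SNHG25 with 7.75. The choice was made knowing that MIR17HG and MIR29B2CHG were among the largest falls after H2O2, so their values are given as a description with no test, and the counts of microRNA hosts called are also given without them. MIR34AHG reached the limit through untreated TIGK alone (its mean count over the other libraries was 5.889). MIR137HG and MIR155HG reached it through TIGK. In HaCaT, MIR155HG had raw counts of 0, 10 and 16 untreated and 0, 1 and 2 after H2O2. The levels of MIR34AHG, MIR137HG and MIR155HG therefore had to differ between groups and are likewise a description.

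RNA was sequenced from HaCaT, spontaneously immortalized human keratinocytes of the skin, and from TIGK, telomerase-immortalized human gingival keratinocytes, each grown to maximum confluency in DermaLife K medium. Cultures of either line received 5 mM hydrogen peroxide (H2O2) for 3 h or stayed untreated as controls, which gave 4 groups of 3 libraries. One label field names H2O2, H2O3 and H2O4 across the replicates of a treated group, whereas the treatment protocol names H2O2 for all of them. No label states whether the replicates were separate cultures, so the p-values below measure the spread between these libraries, which may be technical.

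Host genes carry small RNAs within their transcripts. A microRNA host gives a primary transcript from which the Drosha complex cuts hairpins, which Dicer then trims to the mature microRNA that Argonaute proteins load. A snoRNA host is spliced, the snoRNA is released from an excised intron to guide modification of ribosomal or spliceosomal RNA, and the spliced remainder is often degraded during translation by nonsense-mediated decay. The libraries measured the long host RNA. The mature microRNAs and snoRNAs were not measured, and in bulk RNA fewer cells and less RNA per cell cannot be told apart.

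The microRNA hosts carry the following products, shown 5′ to 3′ because they are the products of the hosts described below, several of which share a seed within a host. The seed, bases 2 to 8, is in capitals; the sequences are from RefSeq on GRCh38.p14, in which all 21 microRNA hosts matched, with 38 hairpins and 66 mature microRNAs.
hsa-miR-17-5p (MIR17HG): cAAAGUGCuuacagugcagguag
hsa-miR-20a-5p (MIR17HG): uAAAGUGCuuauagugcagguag
hsa-miR-19a-3p (MIR17HG): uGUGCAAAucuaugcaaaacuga
hsa-miR-19b-3p (MIR17HG): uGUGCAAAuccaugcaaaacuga
hsa-miR-92a-3p (MIR17HG): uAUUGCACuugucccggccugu
hsa-miR-29b-3p (MIR29B2CHG): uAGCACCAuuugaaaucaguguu
hsa-miR-29c-3p (MIR29B2CHG): uAGCACCAuuugaaaucgguua
hsa-miR-221-3p (MIR222HG): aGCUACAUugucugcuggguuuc
hsa-miR-222-3p (MIR222HG): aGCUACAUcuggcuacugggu
hsa-miR-34a-5p (MIR34AHG): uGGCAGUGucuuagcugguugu
hsa-miR-503-5p (MIR503HG): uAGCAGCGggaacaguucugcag
hsa-miR-205-5p (MIR205HG): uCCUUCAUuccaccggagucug
MIR17HG, at chromosome 13, 91347820 to 91354579, plus strand, holds 6 hairpins, and the seed AAAGUGC occurs in both miR-17-5p and miR-20a-5p. MIR29B2CHG, at chromosome 1, 207801518 to 207879096, minus strand, holds the hairpins of miR-29b and miR-29c with the seed AGCACCA in both. MIR222HG, on the minus strand of chromosome X from 45745211 to 45770274, holds miR-221 and miR-222, whose 3p arms share GCUACAU. Host coordinates are those of the deposited table, on GRCh38.

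The total count per library lay between 30426401 and 49034244. Keratinocyte markers such as KRT5 and KRT14 were abundant in every group, with a summed level of 915500 to 1256000 normalized reads over 6 markers. The 6 fibroblast markers summed to 365 to 932, the 4 melanocyte markers to 31.2 to 62.1, the 4 immune markers to 6.91 to 104, and the 3 endothelial markers to 12.4 to 46.1. The mitochondrial share of reads was lower after treatment, going from between 6.10% and 6.26% to between 3.30% and 3.51% in HaCaT and from between 3.33% and 3.45% to between 1.39% and 1.5% in TIGK, and its part in the results below was not tested.

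Relative to length, the snoRNA hosts were the more abundant class. Their median level in untreated cells was 8.71 RPKM in HaCaT (reads per kb of gene length, computed on TMM-scaled library sizes) and 5.41 in TIGK, against 0.992 and 1.02 for the microRNA hosts. MIR205HG, the host of the epithelial microRNA miR-205, had the highest level of all members in untreated HaCaT, 138 ± 2.01 (SD, n = 3) on this scale, and 37.3 ± 1.08 in TIGK. GAS5, a snoRNA host known for accumulating in growth-arrested cells, stood at 49.5 in untreated HaCaT and 52.6 in untreated TIGK. SNHG1 and SNHG8 followed in HaCaT with 32.1 and 30.0. At the low end, MIR137HG had no read in any HaCaT library and a level of 0.0861 in untreated TIGK.

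After H2O2, about as many microRNA hosts were downregulated as did not pass the test, and none was called higher. In the tests below a gene was called at an adjusted p under 0.01 in edgeR's quasi-likelihood test over 16618 genes. In TIGK 10 of 21 microRNA hosts were lower and 0 were higher, where 12.9% of all genes tested were lower and 10.2% were higher. In HaCaT 11 of 21 were lower and 0 were higher, against 15.2% and 18.9% of all genes. Without MIR17HG and MIR29B2CHG the counts were 8 of 19 lower in TIGK, MIR34AHG among them, and 9 of 19 in HaCaT. The microRNA hosts had a median log2 fold change of -0.50 (TIGK) and -0.64 (HaCaT), beside 0.0084 and 0.0375 for all genes tested. The other long non-coding genes tested, 1956 in number, had medians of -0.21 and -0.36, with 8.84% lower in TIGK and 15% lower in HaCaT.

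Of the snoRNA hosts, those called were higher after H2O2, with 1 exception. In TIGK 4 of 21 were upregulated and 0 were lower, and in HaCaT 11 of 21 were upregulated and 1, SNHG4, was lower. Their median change on the log2 scale was 0.23 for TIGK and 0.35 for HaCaT. Of all genes tested, 10.2% were higher and 12.9% lower in TIGK, and 18.9% were higher and 15.2% lower in HaCaT. Of the other long non-coding genes, 1.48% were higher in TIGK and 1.74% in HaCaT. At an unadjusted p under 0.05, edgeR likewise had 0 higher microRNA hosts in both lines and 1 lower snoRNA host in TIGK, and DESeq2 called 0 in each of these cases. In the plot of both responses MIR34AHG lies away from the rest.

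**Figure D1:**
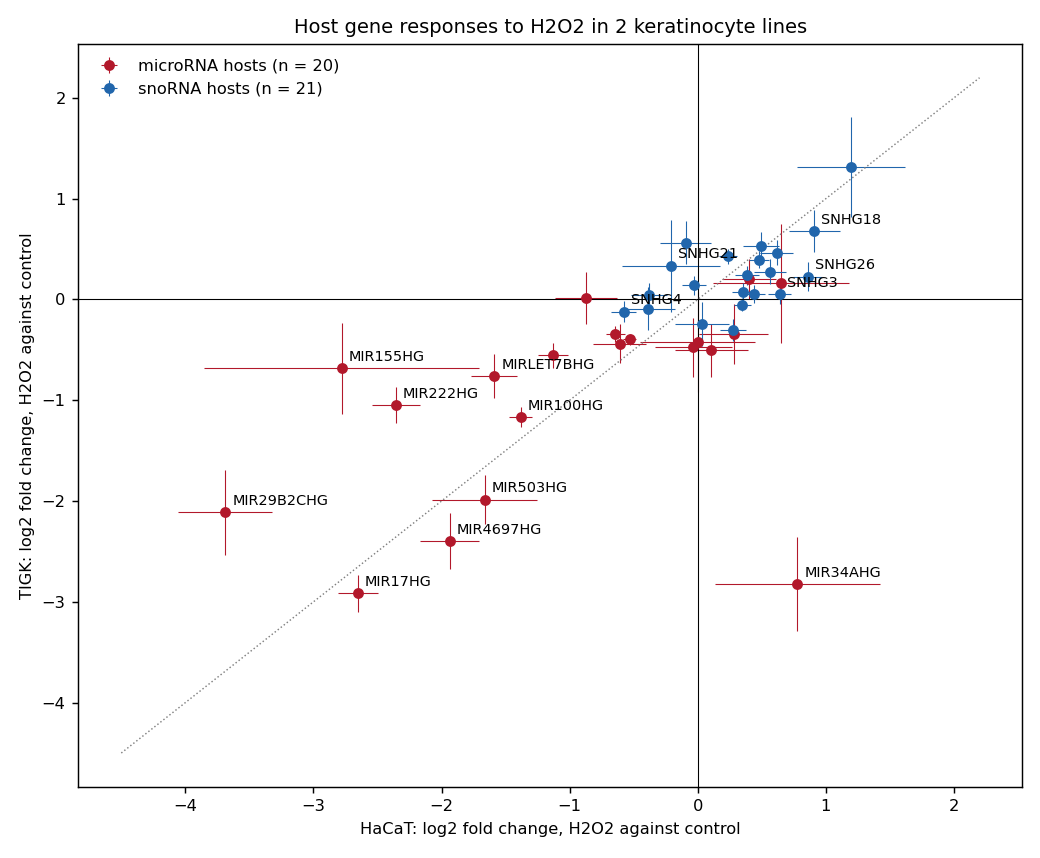
Log2 fold change after H2O2 in HaCaT (horizontal axis) and in TIGK (vertical axis) for 41 host genes, with bars of 1 standard error from the edgeR fit and a dotted line of equal change. The microRNA hosts in red reach -3.69 in HaCaT and -2.92 in TIGK, while the snoRNA hosts in blue lie between -0.58 and 1.19 in HaCaT; MIR137HG, with no read in HaCaT, is left out.

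The 2 lines share no library, and the order of their responses is given as a description over genes that share libraries within a line. Spearman's rho between the log2 fold changes was 0.702 over the 42 members, 0.609 over the microRNA hosts and 0.519 over the snoRNA hosts. Without MIR17HG and MIR29B2CHG it was 0.665 over 40 members and 0.53 over 19 microRNA hosts. Of the microRNA hosts, 9 were called lower in both lines, or 7 without these. MIR34AHG was called in TIGK alone, MIRLET7BHG and MIR3936HG in HaCaT alone, and 9 microRNA hosts in neither.

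MIR17HG is the host of the miR-17-92 cluster, a target of MYC that is known to promote proliferation. Its normalized reads, counts scaled to the mean effective library size, were 547, 554 and 660 in untreated HaCaT and 85.7, 114 and 80.1 after H2O2. In TIGK the values were 230, 212.5 and 218.5 without treatment and 23.2, 29.5 and 33.25 after it. The treated and untreated libraries did not overlap in either line, and the log2 fold change was -2.65 (SE 0.16) in HaCaT and -2.92 (SE 0.18) in TIGK.

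MIR29B2CHG, the host of miR-29b-2 and miR-29c, which are known to repress collagen mRNAs, was lower still relative to its control in HaCaT. It had 158, 184.5 and 120.5 normalized reads in untreated HaCaT and 16.7, 5.83 and 12.8 after H2O2, a log2 fold change of -3.69 (SE 0.37). In TIGK it had 36.6, 21.8 and 36.6 normalized reads without treatment and 4.64, 10.5 and 6.33 after H2O2, a log2 fold change of -2.11 (SE 0.42). All treated values were below all untreated ones in each line, and the TIGK values rest on few reads.

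MIR222HG carries miR-221 and miR-222, which are known to repress the cell-cycle inhibitor CDKN1B. Untreated HaCaT libraries had 743, 766 and 756 normalized reads of it and treated ones 117, 103 and 220. Untreated TIGK libraries had 547, 447 and 439 and treated ones 241, 226.5 and 226. The host was downregulated in both lines, by a log2 fold change of -2.36 (SE 0.19, edgeR adjusted p 1.75e-08) in HaCaT and -1.05 (SE 0.18, adjusted p 0.000165) in TIGK. The third treated HaCaT library was the highest of its group, still below every control.

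MIR4697HG, the host of miR-4697, fell to a similar extent in both lines. Its normalized reads were 470, 452 and 403 in untreated HaCaT and 162, 88.6 and 95.0 after H2O2. TIGK had 130, 178 and 132 before and 13.9, 37.1 and 30.1 after. The log2 fold change was -1.94 (SE 0.23, edgeR adjusted p 2.47e-06) in HaCaT and -2.40 (SE 0.28, adjusted p 2.35e-06) in TIGK, and the groups did not overlap in either.

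MIR34AHG, the host of miR-34a, a known target of p53, was measurable mainly in TIGK. Untreated TIGK libraries had 85.4, 60.1 and 34.5 normalized reads and treated ones 11.6, 9.52 and 4.75, a log2 fold change of -2.82 (SE 0.47), given without a test because the untreated TIGK reads are what brought the gene past the count limit. In HaCaT the raw counts were 4, 3 and 4 in the controls and 6, 6 and 4 after H2O2, close to the floor of what these libraries could show. The HaCaT log2 fold change was positive, 0.78 (SE 0.65), and was not called, and a fall would not have been detectable at this depth.

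**Figure D2:**
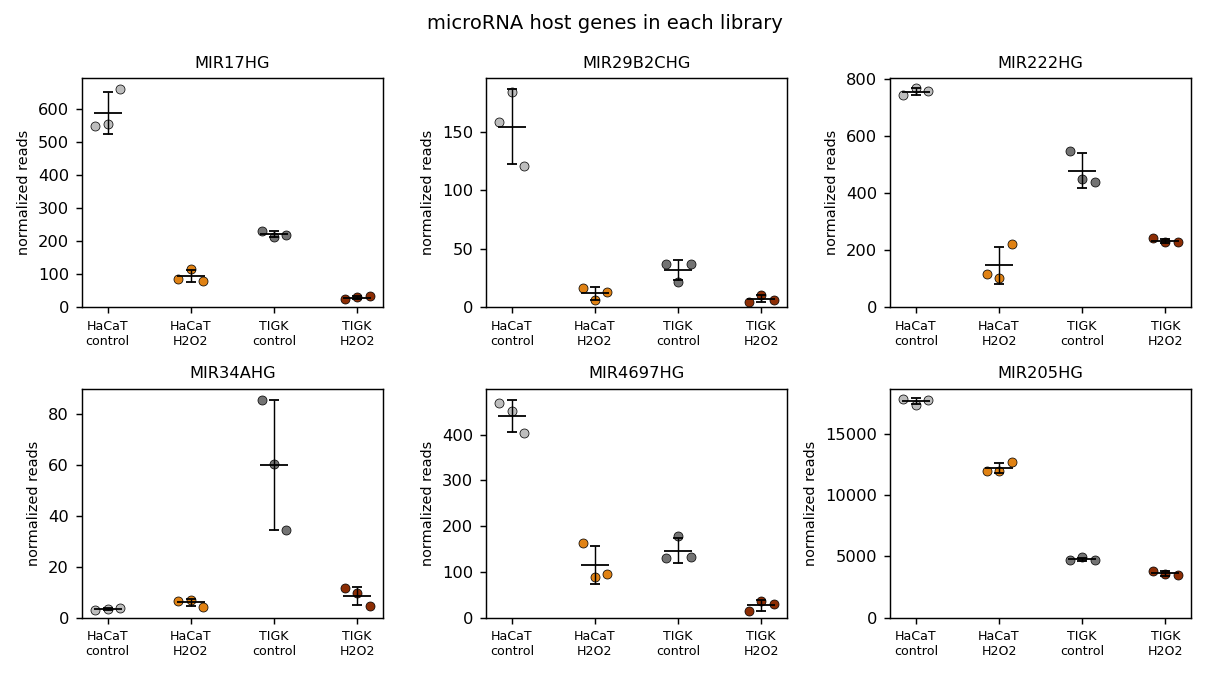
Normalized reads of 6 microRNA hosts in each of the 12 libraries, with a point per library and the mean and SD of each group of 3 as a line and bars. MIR17HG, MIR29B2CHG, MIR222HG, MIR4697HG and MIR205HG are lower after H2O2 in both lines, and MIR34AHG falls in TIGK from between 34.5 and 85.4 to between 4.75 and 11.6.

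Of the other microRNA hosts called lower in both lines, MIR503HG, the host of a member of the miR-15/16 family, had log2 fold changes of -1.99 in TIGK and -1.66 in HaCaT, where 1 of the 3 treated libraries had no read of it. Its HaCaT call was lost in DESeq2 and with the groups compared alone. MIR100HG, which holds miR-100, let-7a-2 and miR-125b-1, changed by -1.16 in TIGK and -1.38 in HaCaT on the log2 scale. MIR193BHG, the host of miR-193b and miR-365a, changed by -0.55 and -1.13. The smallest falls that were called belonged to the hosts with the most reads: MIR22HG with -0.34 and -0.64, and MIR205HG with -0.40 and -0.53. MIR22HG lies opposite WDR81, and without a stated strand setting of the counting the reads of such pairs cannot be told apart.

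MIRLET7BHG, which carries let-7a-3 and let-7b, was called in HaCaT with a log2 fold change of -1.59 (SE 0.18) and had -0.76 (SE 0.22, edgeR adjusted p 0.0108) in TIGK. MIR3936HG had -0.87 (SE 0.24) in HaCaT and 0.0143 (SE 0.26) in TIGK, and it lies opposite SLC22A4 and SLC22A5. Its HaCaT call was kept in 7 of 12 fits that each left out 1 library. MIR155HG, the host of the immune-associated miR-155, had at most 16 raw reads in a HaCaT library and was not called in either response. MIR31HG, MIR210HG, MIR200CHG, MIR181A2HG, MIR600HG, MIR4453HG and MIR4458HG did not pass the test in either line, with log2 fold changes between -0.61 and 0.65 in HaCaT and between -0.50 and 0.20 in TIGK.

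A second readout of the same loci was the rows that the table lists for the hairpins themselves, separate from the host row. Each of the 21 microRNA hosts holds at least 1 such row. Many rows had no read in any library, among them all those of MIR17HG and MIR29B2CHG, which lie inside exons of their hosts in GENCODE v44. Over the microRNA rows of all members, 1 of 21 inside a host exon had reads. Those in introns had reads in 13 of 13 cases and those across an exon border in 3 of 3. An exonic row without reads is therefore no readout of its locus, and the sum below rests mostly on rows not inside an exon. The sum over the 37 rows went from 845 to 95 raw reads in HaCaT and from 358 to 77 in TIGK. In untreated cells MIR205 and MIR221 held most of it, with 516 and 175 reads in HaCaT and 134 and 85 in TIGK. The hairpin rows of MIR205 and MIR221 were the 2 inside microRNA hosts with a mean count of at least 10. In the GENCODE v44 annotation both cross an exon border of their host. The rows hold fragments assigned to the hairpin interval of the long RNA, and they do not measure the mature microRNA.

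The MIR205 row had 168, 138 and 169 normalized reads in untreated HaCaT and 24.5, 23.3 and 10.7 after H2O2. In TIGK it had 54.9, 35.3 and 48.1 without treatment and 8.12, 7.61 and 3.17 after it. Both falls were called, at a log2 fold change of -3.02 (SE 0.32, edgeR adjusted p 7.77e-07) in HaCaT and -2.90 (SE 0.40, adjusted p 1.65e-05) in TIGK. Set per 100 reads of MIR205HG, the row gave 0.943, 0.796 and 0.951 in untreated HaCaT and 0.204, 0.195 and 0.0844 after H2O2. The same ratio was 1.17, 0.717 and 1.03 in untreated TIGK and 0.212, 0.215 and 0.0911 after H2O2. The hairpin row therefore had the larger fall of the pair in each line, with no overlap of the ratio between treated and untreated libraries; with 3 libraries against 3 an exact permutation test cannot go below 0.10, and none was run on the ratio.

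The MIR221 row changed by -3.98 (SE 0.66, edgeR adjusted p 9.1e-05) in HaCaT and -2.93 (SE 0.65, adjusted p 0.00178) in TIGK on the log2 scale. Its raw counts were 72, 58 and 45 in untreated HaCaT and 8, 1 and 0 after H2O2, and 21, 43 and 21 in untreated TIGK and 3, 2 and 7 after it. Per 100 reads of MIR222HG the treated and untreated libraries overlapped in HaCaT, where 1 treated library had 7.62 beside controls of 5.87 to 8.37. They did not overlap in TIGK, at 0.84 to 2.45 against 3.9 to 9.98. Of the 19 microRNA rows tested outside the host genes, 4 were lower in HaCaT and 1 in TIGK, with medians of -0.76 and -0.86 on the log2 scale. The MIR503 row, under the count limit, had 75 raw reads in untreated TIGK and 6 after H2O2, and no read in HaCaT.

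**Figure D3:**
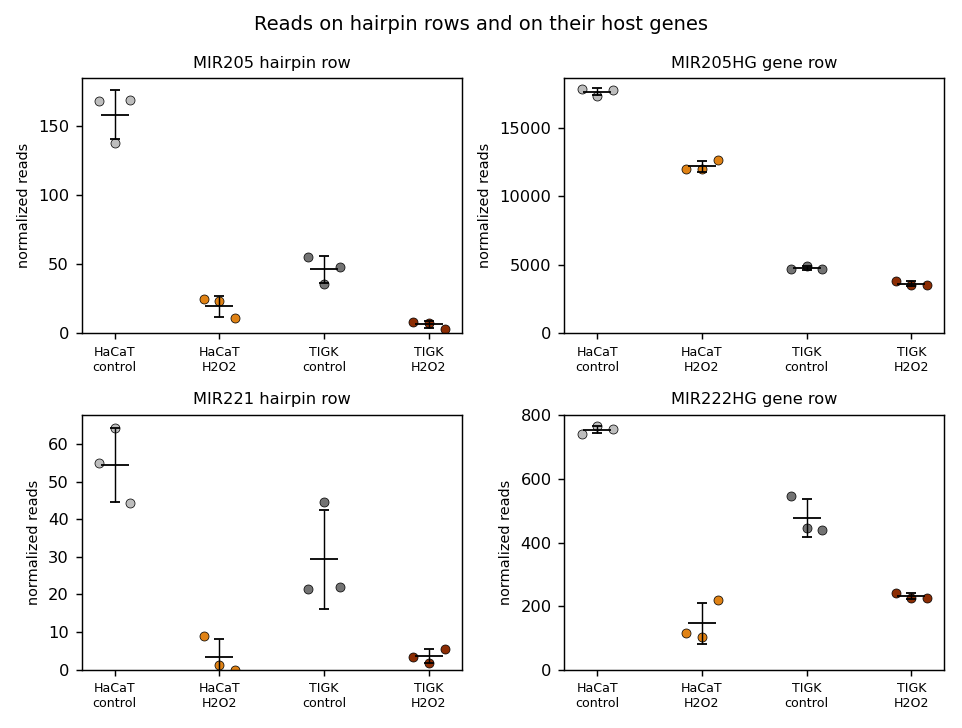
Normalized reads on the MIR205 and MIR221 hairpin rows (left) and on their host genes MIR205HG and MIR222HG (right) in each library, with the mean and SD of each group of 3. The MIR205 row falls from between 138 and 169 to between 10.7 and 24.5 in HaCaT, while MIR205HG goes from between 17350 and 17820 to between 11960 and 12650.

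Among the snoRNA hosts, SNHG6, SNHG7 and SNHG8 were called higher in both lines, SNHG8 least firmly. SNHG6 had 980, 927 and 925 normalized reads in untreated HaCaT and 1200, 1321 and 1827 after H2O2. In TIGK it had 2303, 2230 and 1895 before and 2691, 2679 and 3483 after. Its log2 fold change was 0.62 (SE 0.13, edgeR adjusted p 0.000741) in HaCaT and 0.46 (SE 0.12, adjusted p 0.00668) in TIGK, with no overlap of the groups.

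SNHG7 had 1994, 1902 and 2127 normalized reads in untreated HaCaT and 2509, 2804 and 3068 after H2O2. Its TIGK values were much lower, at 465, 487 and 421 without treatment and 620, 601 and 587.5 with it. The log2 fold change was 0.48 (SE 0.0766, edgeR adjusted p 6.61e-05) in HaCaT and 0.40 (SE 0.0867, adjusted p 0.00159) in TIGK. SNHG8 had 1045, 1007 and 963 normalized reads in untreated HaCaT against 1110, 1327 and 1803 after H2O2, and 874.5, 1018 and 758 against 1145, 1191 and 1482 in TIGK. Its log2 fold change was 0.49 in HaCaT (adjusted p 0.00764) and 0.53 in TIGK (adjusted p 0.00688). With 1 library left out SNHG8 kept its call in 4 of 12 fits for HaCaT and 7 of 12 for TIGK, and its HaCaT call was also lost with the groups compared alone and with the replicate block. The third treated library was the highest for SNHG6 and SNHG8 in each line.

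SNHG1, the host of several box C/D snoRNAs, was called in TIGK alone. TIGK libraries had 5930, 5729 and 5107 normalized reads without treatment and 7600, 7240 and 7702 with it, a log2 fold change of 0.43 (SE 0.0713, edgeR adjusted p 0.000132). In HaCaT the values were 4575, 4263 and 4283 against 4945, 4709 and 5800, with a log2 fold change of 0.24 and an adjusted p of 0.0115. Of the 4 calls in TIGK, SNHG1 alone was left when the third untreated TIGK library was omitted, and SNHG1 and SNHG7 when the third treated TIGK library was omitted.

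In HaCaT the largest called rises were those of SNHG18 and SNHG26. SNHG18 had 108, 104 and 112 normalized reads in untreated HaCaT and 190, 210 and 207 after H2O2, a log2 fold change of 0.91 (SE 0.20, edgeR adjusted p 0.00112). In TIGK it had 94.6, 50.8 and 63.8 before and 95.1, 112 and 127 after, with a log2 fold change of 0.68 that did not pass (adjusted p 0.0176). SNHG26 rose from 728, 781 and 863 normalized reads to 1365, 1420 and 1512 in HaCaT, by 0.86 on the log2 scale (SE 0.11, adjusted p 7.17e-06). Its TIGK values, 130, 131 and 148 before and 140, 134 and 199.5 after, overlapped.

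GAS5 had 6680, 6510 and 6373 normalized reads in untreated HaCaT and 7710, 7472 and 10320 after H2O2, and 7188, 7404 and 6176 in untreated TIGK against 7938, 7806 and 8795. No treated library fell below a control of its line. The rise was called in HaCaT at a log2 fold change of 0.38 (SE 0.0954, edgeR adjusted p 0.00298) and not in TIGK at 0.24 (SE 0.0952, adjusted p 0.0558). The HaCaT call held in 8 of 12 fits that each left out 1 library. With the groups compared alone GAS5 was called in TIGK and not in HaCaT. It was also called in TIGK without the count filter and without the third treated HaCaT library. The difference of the responses was not called for GAS5 (edgeR adjusted p 0.556), so the calls do not separate the lines.

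SNHG3, SNHG5, SNHG12, SNHG15 and SNHG17 completed the rises in HaCaT, at log2 fold changes of 0.64, 0.56, 0.44, 0.35 and 0.35. SNHG4 was the exception, with a log2 fold change of -0.58 (SE 0.10, edgeR adjusted p 0.00014) in HaCaT and -0.12 (adjusted p 0.377) in TIGK. SNHG4 lies opposite SIL1, SNHG12 opposite TRNAU1AP and SNHG3 on the strand of RCC1, so their reads may be shared with those genes. SNHG9, SNHG10, SNHG11, SNHG14, SNHG16, SNHG19, SNHG20 and SNHG21 were called in neither line. SNHG9, which had at most 107 normalized reads in any library, had the largest log2 fold changes of the class, 1.19 (SE 0.42, adjusted p 0.0257) in HaCaT and 1.31 (SE 0.49, adjusted p 0.0454) in TIGK.

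**Figure D4:**
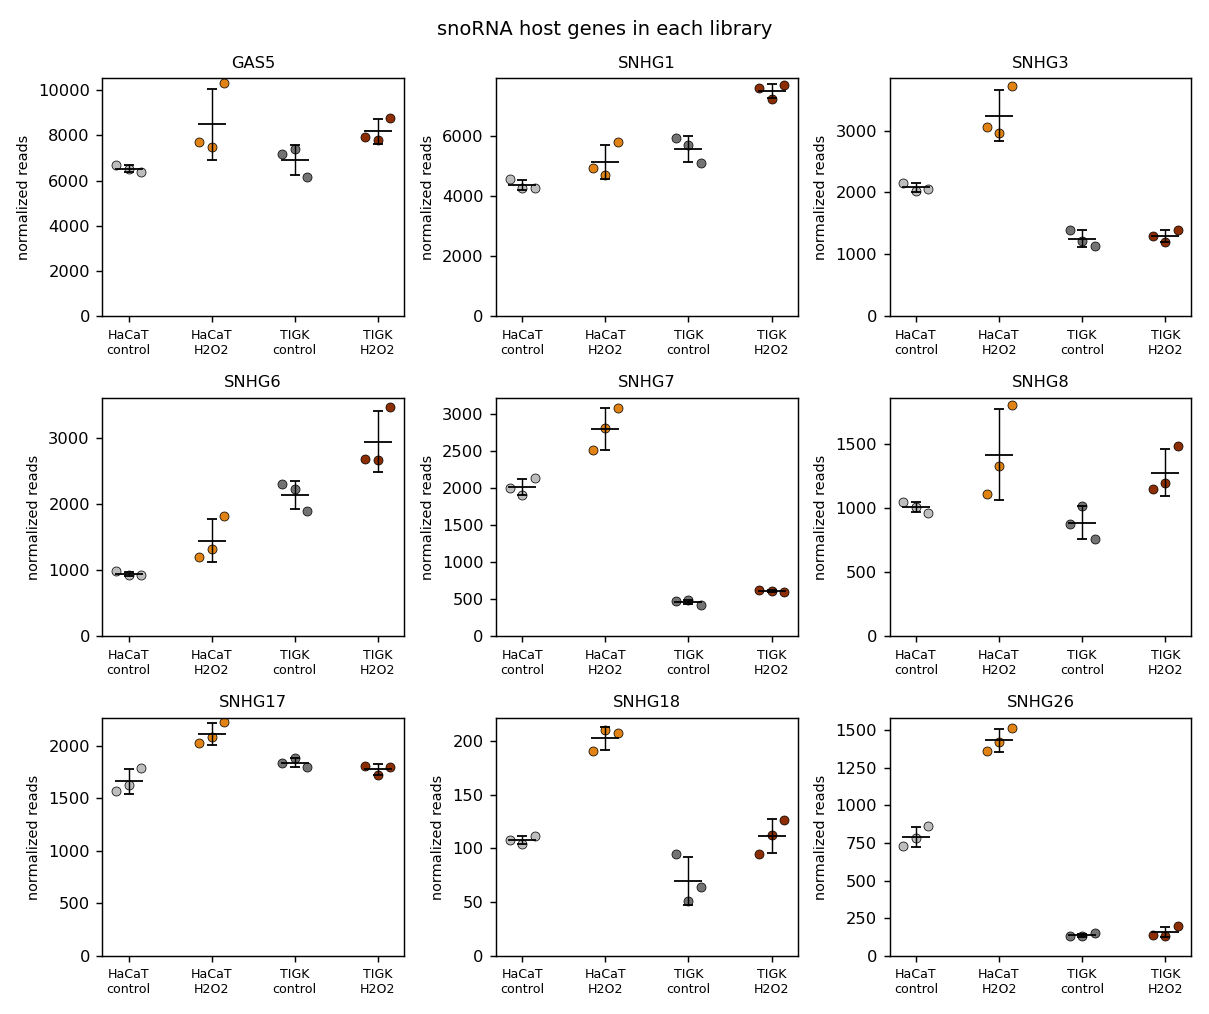
Normalized reads of 9 snoRNA hosts in each of the 12 libraries, with a point per library and the mean and SD of each group of 3. GAS5, SNHG1, SNHG6, SNHG7 and SNHG8 sit higher after H2O2 in both lines, SNHG3, SNHG17 and SNHG26 in HaCaT, and the third treated HaCaT library reaches 10320 for GAS5.

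The snoRNA rows inside the hosts gave no call. Of 6 such rows that reached the mean count of 10, 0 were called in either response by edgeR or by DESeq2, and at an unadjusted p under 0.05 there were 1 higher and 1 lower in HaCaT and 1 lower in TIGK. SNORA73B, an intronic row of SNHG3, had 53.5, 61.9 and 57.3 normalized reads in untreated HaCaT and 75.7, 78.1 and 88.6 after H2O2, and its log2 fold change of 0.49 had an adjusted p of 0.131. SNORA71B, in an intron of SNHG17, had a log2 fold change of -0.95 (SE 0.40, adjusted p 0.0586) in HaCaT. SNORA71C, in the same host, had 0.72 (SE 0.33, adjusted p 0.0829) in HaCaT and -0.87 (SE 0.31, adjusted p 0.0368) in TIGK.

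Near their annotated starts a larger share of the snoRNA hosts held a short pyrimidine run of the kind that opens mRNAs of the translation machinery. The letters CTTTC or CTTTT were searched on the gene's strand within 15 bases on each side of the RefSeq start, on GRCh38.p14. These letters were picked after the starts of the members had been read, so the shares are a description and not a test. They occurred in 7 of 18 snoRNA hosts with a window, 38.9%, in 2 of 19 microRNA hosts, 10.5%, and in 2650 of 27305 genes, 9.71%. The RefSeq start used lay far from the start in the deposited table for SNHG12 (1259 bases), MIR29B2CHG (56393) and MIRLET7BHG (32128), which are counted here. The 4 starts below lie within 53 bases of the start in the deposited table, in hosts that were upregulated (SNHG5, SNHG8) or not (SNHG16, SNHG19), with the letters in capitals.
SNHG5, chr6:85678719-85678748, minus strand: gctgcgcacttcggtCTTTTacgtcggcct
SNHG8, chr4:118278747-118278776, plus strand: aaggcctcggcCTTTCacattcgggaagcg
SNHG16, chr17:76557749-76557778, plus strand: cgcaggggcggtctcgcgttCTTTTcgagg
SNHG19, chr16:2155344-2155373, minus strand: ctcgcccgcccctgtCTTTTcggggtcgag
SNHG4, which was lower in HaCaT, also holds them, so the letters did not separate the hosts by response.

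The lines were compared directly in their response to H2O2 through the difference of the log2 fold changes, TIGK minus HaCaT. Of the 42 members 4 were called, and 5.3% of all genes tested were. MIR222HG fell further in HaCaT, with a difference of 1.31 (SE 0.26, edgeR adjusted p 0.00256), and it was called in all 12 fits that left out 1 library. MIR34AHG had a difference of -3.60 (SE 0.81), which rests on the untreated TIGK group that brought it past the count limit and on HaCaT counts of 3 to 6, and is not support for a difference between the lines.

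The other 2 were snoRNA hosts that rose in HaCaT. SNHG3 had 2153, 2030 and 2055 normalized reads in untreated HaCaT and 3053, 2953 and 3712 after H2O2, but 1399, 1221 and 1131 against 1298, 1193 and 1391 in TIGK, and the difference was -0.59 (SE 0.13, edgeR adjusted p 0.00503). SNHG17 had 1564, 1626 and 1791 against 2023, 2081 and 2229 in HaCaT, and 1831, 1885 and 1796 against 1809, 1718 and 1793 in TIGK, a difference of -0.40 (SE 0.0917, adjusted p 0.0079). The treated and untreated libraries overlapped in TIGK for both genes and did not overlap in HaCaT. The calls depended on single libraries: SNHG3 kept its call in 4 of 12 such fits, MIR34AHG in 3 and SNHG17 in 2. Of all members, 1 was called without the first or the second untreated HaCaT library, the first or the second untreated TIGK library, or the second treated TIGK library. There were 2 without the third untreated HaCaT library, the second treated HaCaT library, or the first or the third treated TIGK library.

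Between the untreated lines, HaCaT had the higher level for 19 of 42 members and TIGK for 11, where 29.1% and 30.8% of all genes tested were. By class these were 11 and 7 microRNA hosts, or 9 and 7 without MIR17HG and MIR29B2CHG, and 8 and 4 snoRNA hosts. The 7, and so the 11, include MIR34AHG, MIR137HG and MIR155HG, which passed the count limit through TIGK. Their part in these counts was therefore fixed by the choice. Omitting the third untreated HaCaT library or the first untreated TIGK library left 7 members higher in TIGK. After H2O2, HaCaT had the higher level for 18 members and TIGK for 9, against 30.2% and 29.8% of all genes. The 9 again include MIR137HG and MIR155HG.

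The hosts higher in untreated HaCaT were led by SNHG26 at a log2 fold change of 2.53 (SE 0.13), MIRLET7BHG at 2.34 (SE 0.19), SNHG7 at 2.13 (SE 0.0843) and MIR205HG at 1.89 (SE 0.0536). MIR29B2CHG and MIR17HG, given without a test, stood at 2.28 and 1.41. The hosts higher in untreated TIGK included MIR503HG at -3.96 (SE 0.28), SNHG14 at -1.504 (SE 0.13) and SNHG6 at -1.18 (SE 0.13). MIR34AHG at -4.09 (SE 0.53) and MIR155HG at -3.70 (SE 0.57) are a description, because TIGK reads brought them past the count limit. SNHG14, a very long transcript of the imprinted Prader-Willi region, overlaps SNRPN and lies opposite UBE3A.

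MIR137HG, the host of miR-137, had no read in HaCaT and 14.5 to 31.4 normalized reads in TIGK libraries, at least 7.85-fold higher in untreated TIGK and at least 6.79-fold higher after H2O2, with a floor of 3 counts per library. For MIR222HG the log2 fold change went from 0.66 (SE 0.17, edgeR adjusted p 0.00193) in favour of HaCaT before H2O2 to -0.65 (SE 0.20, adjusted p 0.00617) after it. The later call was kept in 7 of 12 fits with 1 library left out and was lost with the groups compared alone, and the earlier one was kept in 11 of 12. The levels of GAS5 and SNHG8 were not distinguishable between the lines in either state, with adjusted p values of 0.438 and 0.256 untreated and 0.618 and 0.353 after H2O2, and the 4 log2 fold changes lay between -0.0861 and 0.19.

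**Figure D5:**
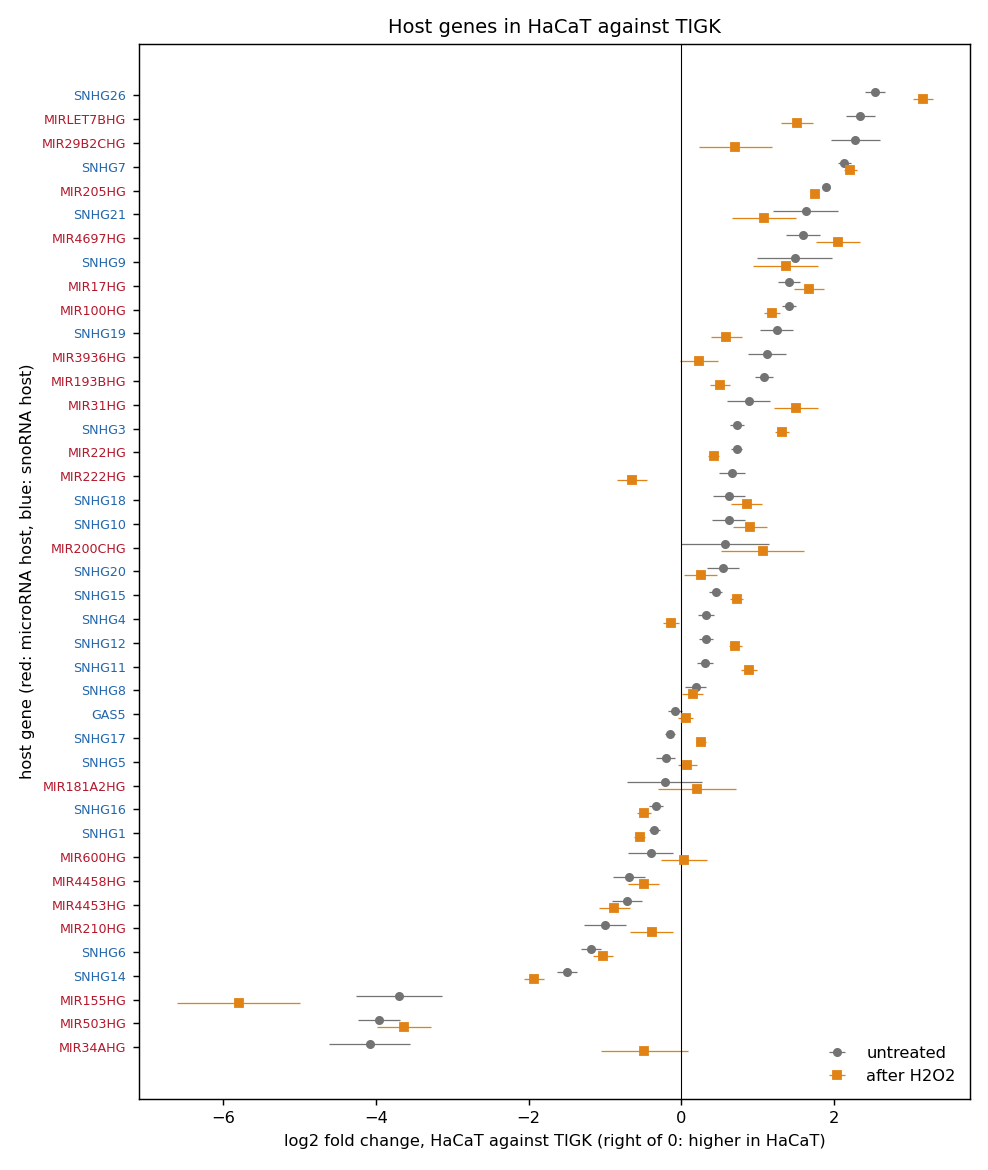
Log2 fold change of HaCaT against TIGK for 41 host genes, untreated (grey circles) and after H2O2 (orange squares), with bars of 1 standard error, sorted by the untreated value. SNHG26 at 2.53 and MIR34AHG at -4.09 end the untreated order, MIR222HG moves from 0.66 to -0.65, and MIR137HG is left out because it had no read in HaCaT.

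The machinery that acts on these RNAs was read from lists, beside shares over all genes of 12.9% lower and 10.2% higher in TIGK and 15.2% lower and 18.9% higher in HaCaT. Of 10 microRNA processing genes, 4 were lower and 1 higher in TIGK, and 5 lower and 1 higher in HaCaT, with medians of -0.18 and -0.27 on the log2 scale. AGO2, the slicing Argonaute, was lower by a log2 fold change of -1.01 in TIGK and -1.40 in HaCaT, and DICER1 by -0.48 and -0.59. AGO1 and DGCR8, the partner of Drosha, were also lower in both lines. DROSHA was higher in TIGK at 0.32 and TARBP2, a partner of Dicer, in HaCaT at 0.40.

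Of 8 snoRNP core proteins, 4 were higher and 0 lower in HaCaT, namely FBL, NHP2, NOP10 and SNU13 at 0.27 to 0.58, and 1, NOP56, was lower in TIGK at -0.22. Of 9 snoRNP assembly factors, 4 were higher and 0 lower in HaCaT, among them RUVBL1 and RUVBL2 at 0.39 and 0.37, and 0 were called in TIGK, where 3 were higher at an unadjusted p under 0.05 and DESeq2 called 0. The nonsense-mediated decay list of 10 had 6 lower and 1 higher in HaCaT and 2 lower and 3 higher in TIGK. SMG1, the kinase that phosphorylates UPF1, had the largest change of that list, at -0.82 in TIGK and -1.16 in HaCaT. In the difference of the responses edgeR called 0 genes of these lists. At an unadjusted p under 0.05 in edgeR, 5 microRNA processing and 4 decay genes had a positive difference, TIGK minus HaCaT, and 3 core and 2 assembly genes a negative one. The share of all genes at that limit was not taken, so these counts cannot be read as many or few. DESeq2 called 1 microRNA processing gene and 2 decay genes, all with a positive difference.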

How the data were processed

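The authors deposited a table of raw read counts per gene; per the labels and the study's methods the reads were aligned to GRCh38 with HISAT2 and counted with featureCounts 1.5.0-p3. HISAT2 is named with versions 2.0.0 and 2.0.5 in the submitters' processing notes, and the annotation release, the strand setting and the treatment of multiply mapped reads are not given in the sources used here. Further tables of the authors' own comparisons (fold changes and p-values) were not used. The members and gene lists were chosen with earlier results of these data known.

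The counts of the 12 libraries were fitted with edgeR 4.0.16 in R 4.3.3: TMM scaling, all groups in 1 model, rows averaging 10 or more raw reads (16618 of 58735), the quasi-likelihood test, and Benjamini-Hochberg adjustment over all genes with a limit of 0.01. Standard errors were derived from the F statistic. Levels per kb used the gene length in the table. Named with values in every library were MIR17HG, MIR29B2CHG, GAS5, the members called in the difference of the responses, and for each response up to 4 members of each class with the largest changes among those called without overlap. Hairpin and snoRNA rows were those lying within a member on its strand. Alternatives were DESeq2 size factors, DESeq2 1.42.0, no count filter, each comparison alone, a limit of 0.05, a replicate block and leaving out each library. Replicates of a group differed beyond sampling noise (chi-square divided by its degrees of freedom, 4.502 to 29.16 over 12 pairs). The procedure was tested on simulated data.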

Additional observations from a re-analysis of the deposited data

Results flagged for a closer look

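The interaction term of the edgeR fit, which compares the response to H2O2 between the lines, was called for 4 of 42 host genes, beside 5.3% of all genes tested. The differences of the log2 fold changes, TIGK minus HaCaT, were 1.31 for MIR222HG, -3.60 for MIR34AHG, -0.59 for SNHG3 and -0.40 for SNHG17. MIR34AHG passed the count limit through untreated TIGK alone, and its value is not support for a difference between the lines. MIR222HG was the 1 of them that was called in all 12 fits with a library left out, while SNHG3 was called in 4 and SNHG17 in 2. Groups of 3 libraries were not tested for outlying libraries.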

How the results depend on the processing

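No microRNA host was called higher in either response under any of the alternatives run, and the lower microRNA hosts numbered 8 to 11 in TIGK and 10 to 13 in HaCaT, or 6 to 9 and 8 to 11 without MIR17HG and MIR29B2CHG. The median of all genes moved by less than 0.1 on the log2 scale between scalings. No value changed direction while called. With a limit of 0.05, 7 snoRNA hosts were higher and 1 was lower in TIGK, 2 were lower in HaCaT, and 8 host genes were called in the difference of the responses. Without the count filter 2 snoRNA hosts were lower in HaCaT. With 1 library left out, the snoRNA hosts higher in TIGK numbered 1 to 6, those lower in HaCaT 1 to 2, the host genes called in the difference of the responses 1 to 5, and those higher in untreated TIGK than HaCaT 7 to 11; the cause was not tested. Replicate numbers shared between groups did not pair the libraries: correlations of their deviations were -0.121 to 0.0257 over 18 pairs, and 2 of 12 libraries correlated best with their own number. With the replicate block 2 snoRNA hosts were higher in TIGK, and no other count moved by over 1.5 times. Of the values of single genes, 636 kept their side of the limit, 56 lost their call and 8 gained one. Low counts limit MIR34AHG, MIR137HG, MIR155HG and the hairpin rows.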

Other observations

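Host genes that carry no host name were read as a further group. Of 15 genes known to hold snoRNAs, such as translation factors and chaperones, 4 were higher and 1 lower in TIGK and 6 higher and 0 lower in HaCaT, with medians of 0.20 and 0.27 on the log2 scale. Of all genes, 10.2% were higher and 12.9% lower in TIGK, and 18.9% were higher and 15.2% lower in HaCaT. The lower gene in TIGK, NOP56, is also on the snoRNP core list. HSPA8, the constitutive chaperone whose introns hold box C/D snoRNAs, was higher by 0.57 (SE 0.13, edgeR adjusted p 0.00214) in TIGK and 1.05 (SE 0.13, adjusted p 3.84e-06) in HaCaT. ZFAS1 was higher in HaCaT at 0.49 and EPB41L4A-AS1 in TIGK at 0.53 (edgeR adjusted p 0.00768 and 0.000921).

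Of 22 genes known to hold microRNAs under other names, most of them protein-coding, 3 were higher and 4 lower in TIGK and 3 higher and 5 lower in HaCaT. These counts lie near the shares of all genes, 10.2% higher and 12.9% lower in TIGK and 18.9% higher and 15.2% lower in HaCaT. Their medians were 0.0245 and 0.0484 on the log2 scale, and their lowest values were -0.49 in TIGK and -0.58 in HaCaT. MIR4435-2HG, whose name is not of the form used for the members, was lower by -0.49 in TIGK and -0.37 in HaCaT. HUWE1, PANK3 and SREBF2 were also lower in both lines, and COPZ1 and NFYC were higher in both. Between the untreated lines 9 of the 22 were higher in HaCaT and 6 in TIGK, against 29.1% and 30.8% of all genes tested. H19, the imprinted host of miR-675, and MEST, the host of miR-335, were both higher in TIGK than in HaCaT, MEST by a log2 fold change of -3.40 (HaCaT against TIGK) without treatment. Whether H19 and MEST reached the count limit through TIGK was not checked, so their levels are a description.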
